A study of Chlorocebus sabaeus with 6 samples.

Results

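The cytokine LIF, the chemokines CXCL8, CXCL1 and CCL2, and regulators and targets of the transcription factor NF-kappaB were followed in COS-1 cells. COS-1 is a fibroblast line from the kidney of the African green monkey (Chlorocebus sabaeus) that carries simian virus 40 sequences. The genes were chosen by name: human Ensembl protein IDs for 10 genes were looked up in the table of expression values, and 8 were found among its 51520 features. These were CXCL8, CXCL1, CCL2, LIF, PTGS2, ICAM1, NFKBIA and TNFAIP3; IL6 and IL1B were not analysed here. The table itself pairs no ID with a symbol, so the names rest on the list. Of the 8 symbols, 7 have an entry in RefSeq's table of genes for the assembly mChlSab1.0.hap1. All 7 entries carry the chromosome number that the deposited table gives. The symbol without an entry is CCL2, so its name was not checked in this way.

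The libraries were 3 from COS-1 cells treated with lentivirus and 3 from untreated COS-1 cells, the controls. All 6 cultures, controls included, had 14 h without serum followed by 90 min of epidermal growth factor (EGF) at 2 ng/ml, so no library shows the unstimulated state. The series title names SHOC2, a scaffold protein of the pathway that leads to the kinases ERK1 and ERK2. What the lentivirus carried, whether the treated cells were 1 clone and whether the replicates came from separate cultures is not in the labels. The p-values therefore measure a spread between libraries that may be technical.

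In resting cells NF-kappaB is held in the cytoplasm by inhibitor proteins such as IkappaB-alpha, the product of NFKBIA. Cytokines and other stimuli mark the inhibitor for destruction, NF-kappaB enters the nucleus, and chemokine, adhesion and enzyme genes are switched on together with NFKBIA and TNFAIP3, whose proteins then damp the response. Fibroblasts use these genes to call in neutrophils and monocytes, and several of them also respond to growth factors.

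By limma 0 of the 3 member rows tested between lentivirus-treated and control cells had an adjusted p under 0.05. Over all tested rows, 6.48% did. The other 5 rows averaged under 1 FPKM and were not tested. Of the 7 sums over overlapping features that were tested, 0 passed, against 19.5% of all such sums. LIF came nearest: its row averaged 1.26 ± 0.267 FPKM in lentivirus-treated cells and 2.51 ± 0.499 FPKM in control cells (SD, n = 3 each), without overlap between the groups. Such a separation was shared by 31.6% of all tested rows. Summed over overlapping features, the inhibitor genes NFKBIA and TNFAIP3 differed by less than the SD within groups. The CXCL8, CXCL1, PTGS2 and ICAM1 rows averaged under 1 FPKM in both groups. The NFKBIA row was lower still, under 0.0001 FPKM in all 6 libraries. Summed over overlapping features, CXCL8, CXCL1 and ICAM1 averaged 1.76, 2.29 and 1.22 FPKM over the 6 libraries.

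FPKM counts sequenced fragments relative to the length of a feature and the size of the library. A row was tested if its mean over the 6 libraries was at least 1 FPKM, with limma on log2(FPKM + 1) and Benjamini-Hochberg adjustment over all 28434 such rows. Of the 8 members 3 reached that mean (CCL2, LIF and TNFAIP3) and 5 did not, so those 5 are given as values. By limma 0 of the 3 tested rows were called at an adjusted p under 0.05, against 6.48% of all tested rows, and 1 (LIF) had an unadjusted p under 0.05, against 24.2%. LIF was also the one tested member whose groups did not overlap, which 31.6% of all tested rows shared. Among rows with a mean of 1 to 5 FPKM, the range of these 3, 2.53% were called. The 3 tested members had log2 changes of -1.05, -0.63 and 0.09, lower in lentivirus-treated cells for CCL2 and LIF and higher for TNFAIP3, beside a median of about 0 (-0.00097) over all tested rows.

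Several members share their position with other features of the table, most of them named by JK accessions. Where features overlap, the values of a single row can be close to 0 because neighbours hold the signal, so the FPKM of overlapping features was also summed into loci. The 8 members lay in 8 loci that held 85 other features, 49 of them at the CXCL8 locus, 13 at CCL2, 9 each at CXCL1 and NFKBIA, 2 each at ICAM1 and TNFAIP3, 1 at LIF and 0 at PTGS2. A locus sum adds features that cover different stretches of a gene, so it can overstate a level. Because FPKM is relative to feature length, the sum can also shift when reads are divided differently between features of unlike length. It therefore compares groups, and ranks genes, only roughly.

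Of the 8 member loci 7 averaged 1 FPKM or more, all but PTGS2. By limma 0 of the 7 were called, against 19.5% of all 16073 tested loci and 10.3% of tested loci with a mean of 1 to 5 FPKM. At an unadjusted p under 0.05 there was 1 of 7, LIF, against 34.4% of tested loci. The groups did not overlap in 1 of the 7, again LIF, against 39.9% of tested loci. The median log2 change over the 7 was -0.08, and over all tested loci it was -0.01.

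**Figure D1:**
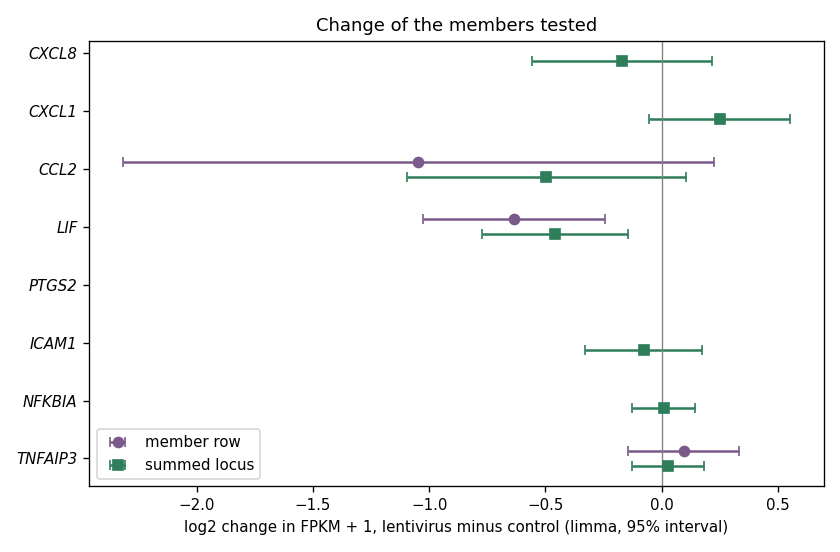
Each point is the log2 change in FPKM + 1 (horizontal axis), lentivirus-treated minus control, of a member row (circle) or its summed locus (square), with limma's 95% interval; members without a point had a mean under 1 FPKM. The intervals of LIF lie below 0, from -1.03 to -0.24 for the row and from -0.77 to -0.15 for the locus, and the other intervals cross 0. The intervals are not adjusted for the number of tests. An unadjusted limma p under 0.05 was shared by 24.2% of tested rows and 34.4% of tested loci. The limma adjusted p of LIF was 0.0768 for the row and 0.0542 for the locus.

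LIF (ENSP00000249075_1) encodes leukaemia inhibitory factor, a secreted cytokine of the IL-6 family that signals through the LIF receptor and gp130. Its row lies on chromosome 19, from 13124493 to 13127507 in the deposited table's coordinates, whose genome build is not given in the sources used here. It stood at 1.50, 0.972 and 1.31 FPKM in the 3 lentivirus-treated libraries, against 2.18, 2.27 and 3.08 FPKM in the 3 control libraries. The highest lentivirus-treated library was below the lowest control library. The mean in lentivirus-treated cells was 0.501 times that in control cells. On the log2(FPKM + 1) scale the change was -0.63 (SE 0.16), with a limma adjusted p of 0.0768. The exact two-sided permutation p was 0.10, the smallest that 3 against 3 libraries allow.

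The LIF locus held 1 other feature, ENSP00000472884 (13127017 to 13127727), for which no gene name was available. That feature stood at 1.02, 0.893 and 0.930 FPKM in lentivirus-treated libraries, against 0.787, 0.879 and 1.05 FPKM in control libraries. Its groups overlapped, so the separation at the locus came from the LIF row. Summed, the locus had 2.51, 1.86 and 2.24 FPKM in lentivirus-treated libraries, against 2.97, 3.15 and 4.14 FPKM in control libraries. The log2 change was -0.46 (SE 0.13) with a limma adjusted p of 0.0542, just outside the threshold. A separate feature within 3 kb of LIF, JK106424.1, had 0.782, 0.815 and 0.871 FPKM in lentivirus-treated libraries, against 1.44, 1.06 and 0.867 FPKM in control libraries. There the highest lentivirus-treated library was above the lowest control library, and the mean was too low for the test.

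CXCL8 (ENSP00000306512_1) and CXCL1 (ENSP00000379110_1) encode chemokines that attract neutrophils, and in the table they lie on the same chromosome, number 7, at 22202644 to 22204038 and at 22327568 to 22328089. The CXCL8 row stood at 0.173 FPKM in 1 lentivirus-treated library and under 0.0001 FPKM in the other two, against 0.413 and 0.0996 FPKM in 2 control libraries and under 0.0001 FPKM in the third. CXCL1 had 0.0105 and 0.0281 FPKM in 2 lentivirus-treated libraries and under 0.0001 in the third, against 0.0836 and 0.0574 FPKM in 2 control libraries and under 0.0001 in the third. Both rows were near the bottom of the scale in both groups, with overlap.

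The loci gave much higher values than the rows: over the 6 libraries the row made up 6.48% of the locus sum at CXCL8 and 1.31% at CXCL1. At the CXCL8 locus, 50 features summed to 1.40, 1.78 and 1.56 FPKM in lentivirus-treated libraries, against 2.59, 1.88 and 1.36 FPKM in control libraries. The control libraries spanned the whole range of the treated ones, and limma gave a log2 change of -0.17 (SE 0.16, adjusted p = 0.502). Without control replicate 1 the CXCL8 locus stood at -0.02 log2, and without control replicate 3 at -0.32.

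The CXCL1 locus summed to 2.57, 2.28 and 2.84 FPKM in lentivirus-treated libraries, against 2.47, 1.95 and 1.60 FPKM in control libraries. The groups overlapped through the highest control library, with a log2 change of 0.25 (SE 0.13, limma adjusted p = 0.217). Without control replicate 3 the CXCL1 locus stood at 0.15 log2, and without control replicate 1 at 0.36 (limma adjusted p = 0.102). A second ENSP feature, ENSP00000427279, covers nearly the same stretch as the CXCL1 row, from 22327568 to 22328086, and its values ran from under 0.0001 to 0.747 FPKM in lentivirus-treated libraries and from under 0.0001 to 0.680 FPKM in control libraries. How the reads of this locus were divided between the rows is uncertain.

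CCL2 (ENSP00000225831_1) encodes a chemokine that attracts monocytes. Its row on chromosome 16, from 27763611 to 27765058, stood at 1.90 and 0.535 FPKM in lentivirus-treated replicates 1 and 2 and under 0.0001 in replicate 3, against 1.84, 1.45 and 4.63 FPKM in control replicates 1, 2 and 3. The groups overlapped, and 1 library on each side stood apart, low in the treated group and high in the control group. By limma the CCL2 row had a log2 change of -1.05 (SE 0.51, adjusted p = 0.282). With 1 library left out it ran from -1.45, without lentivirus-treated replicate 1, to -0.68, without control replicate 3. Leaving out lentivirus-treated replicate 3 gave -0.69. A longer feature from the same start, ENSP00000367832 (27763611 to 27779969), held 1.10, 1.77 and 1.43 FPKM in lentivirus-treated libraries, against 0.538, 1.43 and 2.03 FPKM in control libraries.

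Summed over its 14 features, the CCL2 locus had 3.54, 2.58 and 2.46 FPKM in lentivirus-treated libraries, against 3.21, 3.73 and 6.92 FPKM in control libraries. That sum includes ENSP00000367832, which runs past the end of the CCL2 row and for which no gene name was available. The CCL2 row made up 46.1% of the sum over the 6 libraries, so the sum may not be of CCL2 alone. The groups overlapped, and control replicate 3 stood above all other libraries. Lentivirus-treated replicate 3, which stood apart in the row, did not do so in the sum, with 2.46 FPKM beside 2.58 FPKM in replicate 2. The log2 change was -0.50 (SE 0.25, limma adjusted p = 0.215). Without control replicate 3 it was -0.22, with a limma adjusted p of 0.386, and without control replicate 1 it was -0.68, with one of 0.141.

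**Figure D2:**
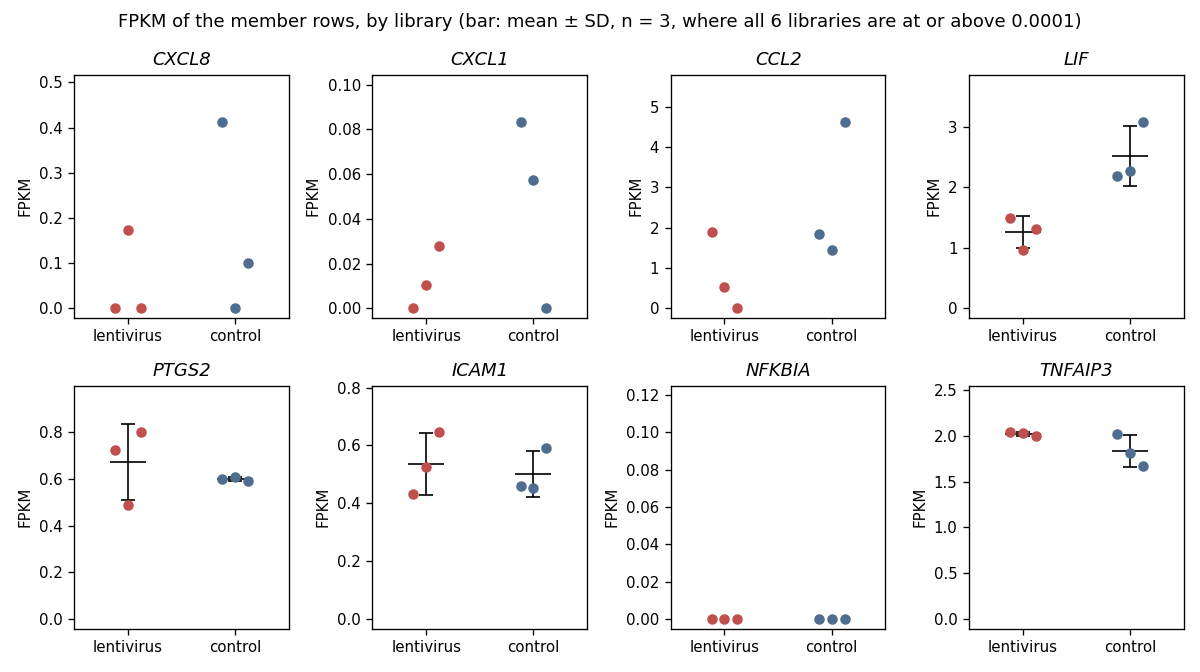
FPKM (vertical axis, linear, its own scale in each panel) of the 8 member rows in the 3 lentivirus-treated and 3 control libraries; bars give the mean and SD where all 6 libraries were at or above 0.0001 FPKM. The LIF libraries separate, between 0.972 and 1.50 FPKM with lentivirus and between 2.18 and 3.08 FPKM in controls, and the NFKBIA row is near 0 in all 6. Among all tested rows, 31.6% had groups that did not overlap.

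PTGS2 (ENSP00000356438_1) encodes cyclooxygenase-2, the inducible enzyme that starts prostaglandin synthesis. It is the one member that overlaps no other feature, on chromosome 25 from 42733925 to 42739888. It stood at 0.724, 0.489 and 0.799 FPKM in lentivirus-treated libraries, against 0.598, 0.607 and 0.592 FPKM in control libraries. The control libraries were close to each other and lay inside the range of the treated ones. The difference was 0.06 on the log2(FPKM + 1) scale, smaller than the SD within groups of 0.10, and it was not tested because the mean was under 1 FPKM.

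ICAM1 (ENSP00000264832_1) encodes an adhesion molecule that binds integrins on leukocytes. Its row on chromosome 6, from 9322713 to 9336815, stood at 0.434, 0.527 and 0.645 FPKM in lentivirus-treated libraries, against 0.458, 0.454 and 0.592 FPKM in control libraries, with nearly the same range in both groups. The ICAM1 locus of 3 features summed to 0.997, 1.04 and 1.44 FPKM in lentivirus-treated libraries, against 1.29, 1.35 and 1.18 FPKM in control libraries. The groups overlapped, with a log2 change of -0.08 (SE 0.10, limma adjusted p = 0.655). The row, at 0.03 log2, and the locus differed in sign, and both differences were smaller than the SD within groups.

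NFKBIA (ENSP00000216797_1) showed the largest gap between row and locus. Its row on chromosome 24, from 12212119 to 12214782, was under 0.0001 FPKM in all 6 libraries. The locus around it, from 12212052 to 12214878, held 10 features that summed to 63.2, 68.5 and 63.1 FPKM in lentivirus-treated libraries, against 61.0, 67.5 and 65.0 FPKM in control libraries. Of the 8 member loci this was the highest sum, above 83.7% of all loci of the table, and its groups overlapped almost fully. The log2 change was 0.01 (SE 0.06, limma adjusted p = 0.927), with a 95% interval from 0.916-fold to 1.11-fold on the FPKM + 1 scale.

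**Figure D3:**
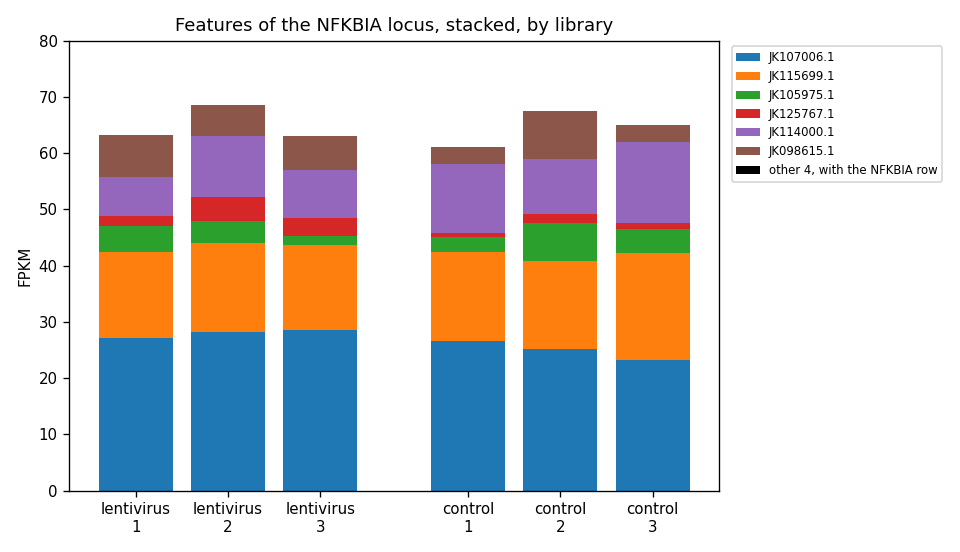
Stacked FPKM (vertical axis) of the features of the NFKBIA locus in each library; 6 features with JK accessions make up almost the whole bar and the NFKBIA row adds nothing visible. The totals lie between 63.1 and 68.5 FPKM with lentivirus and between 61.0 and 67.5 FPKM in controls.

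The signal at the NFKBIA locus lay in 6 tested features with JK accessions. The highest was JK107006.1, over the end of the locus with the lower coordinates, with 27.2, 28.2 and 28.6 FPKM in lentivirus-treated libraries against 26.5, 25.2 and 23.2 FPKM in control libraries. These groups did not overlap, which 31.6% of all tested rows shared, and the log2 change was 0.16 with a limma adjusted p of 0.194. JK115699.1 followed with 15.2, 15.7 and 15.0 FPKM in lentivirus-treated libraries against 15.8, 15.6 and 19.1 FPKM in control libraries, with a limma adjusted p of 0.461.

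JK125767.1, a feature that covers most of the NFKBIA locus, had 1.78, 4.21 and 3.04 FPKM in lentivirus-treated libraries against 0.575, 1.49 and 1.22 FPKM in control libraries. Its groups did not overlap either, and its log2 change was 0.92 (limma adjusted p = 0.137). JK114000.1, which overlaps it in part, had a log2 change of -0.43 (limma adjusted p = 0.255). Overlapping features thus differed in opposite directions, short of the threshold, while the sum over the locus lay between 61.0 and 68.5 FPKM in all 6 libraries. By limma 0 of the 6 were called, against 6.48% of all tested rows, and 2 had an unadjusted p under 0.05, against 24.2%.

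TNFAIP3 (ENSP00000237289_1) encodes A20, a ubiquitin-editing enzyme that restrains NF-kappaB signalling. Its row on chromosome 13, from 35539097 to 35549182, stood at 2.04, 2.03 and 1.99 FPKM in lentivirus-treated libraries, against 2.01, 1.82 and 1.67 FPKM in control libraries. The groups overlapped by 1 library. The log2 change was 0.09 (SE 0.09, limma adjusted p = 0.602). The TNFAIP3 locus of 3 features summed to 4.07, 3.84 and 4.18 FPKM in lentivirus-treated libraries, against 3.83, 4.05 and 3.91 FPKM in control libraries. Its log2 change was 0.03 (SE 0.06, limma adjusted p = 0.797), with a 95% interval from 0.917-fold to 1.13-fold on the FPKM + 1 scale.

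**Figure D4:**
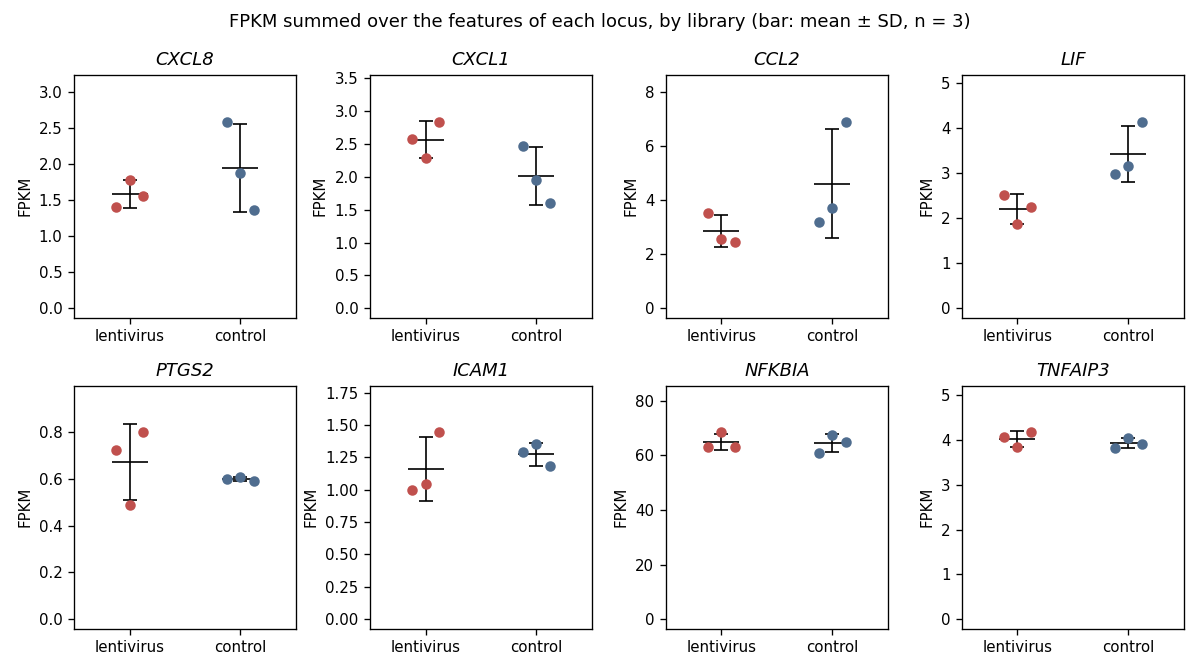
FPKM summed over each member's locus (vertical axis, linear, its own scale in each panel) in the 3 lentivirus-treated and 3 control libraries; bars give the mean and SD. LIF is the one locus whose groups do not overlap, with at most 2.51 FPKM with lentivirus and at least 2.97 FPKM in controls. Among all tested loci, 39.9% had groups that did not overlap.

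The order of the locus sums was led in both groups by NFKBIA, with 64.9 ± 3.08 FPKM in lentivirus-treated and 64.5 ± 3.24 FPKM in control libraries (SD, n = 3 each). TNFAIP3 had 4.03 ± 0.171 FPKM in lentivirus-treated and 3.93 ± 0.111 FPKM in control libraries. CCL2, CXCL1 and LIF came next in lentivirus-treated cells, at 2.86 ± 0.587, 2.56 ± 0.280 and 2.21 ± 0.326 FPKM, and each of them overlapped its neighbour in that order. In control cells CCL2 (4.62 ± 2.01 FPKM), TNFAIP3 and LIF (3.42 ± 0.630 FPKM) overlapped each other, and CXCL1 (2.01 ± 0.437 FPKM) and CXCL8 (1.94 ± 0.616 FPKM) overlapped below them. In lentivirus-treated cells CXCL8, at 1.58 ± 0.192 FPKM, overlapped ICAM1. ICAM1 and PTGS2 were last in both groups, with ICAM1 at 1.16 ± 0.245 and PTGS2 at 0.671 ± 0.161 FPKM in lentivirus-treated cells, and 1.27 ± 0.0863 and 0.599 ± 0.00750 FPKM in control cells.

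Each member locus was set beside the 20 tested loci nearest to it, 10 on either side. The neighbours of NFKBIA had a median log2 change of 0.24: 17 of 20 were higher in lentivirus-treated cells and 9 were called, while NFKBIA itself stood at 0.01. Beside the other members 1 to 5 of the 20 neighbours were called, and 19.5% of all tested loci were. Over all 473 other tested loci of chromosome 24, which holds NFKBIA, the median log2 change was 0.09. The neighbours of LIF had a median log2 change of -0.03, against -0.46 at LIF, and those of CCL2 had one of -0.07, against -0.50 at CCL2. For the other 5 members the neighbours' medians ran from -0.06 at PTGS2 to 0.07 at TNFAIP3. These are descriptions, and the differences between a member and its neighbours were not tested.

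**Figure D5:**
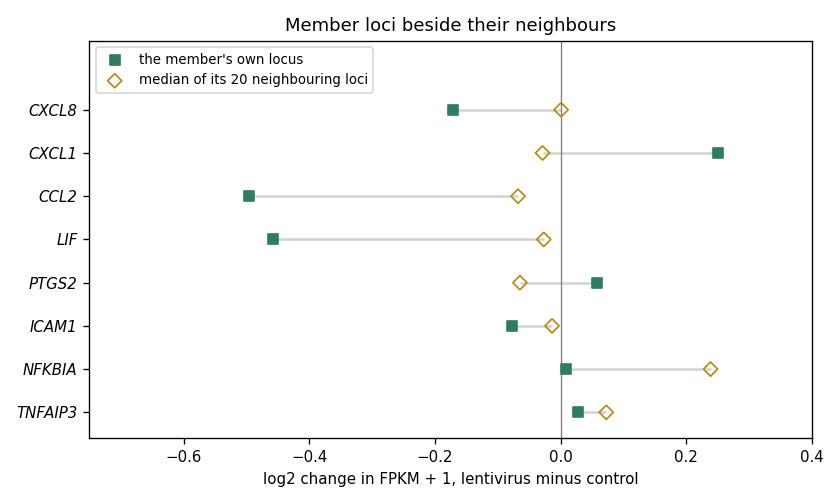
The log2 change in FPKM + 1 (horizontal axis), lentivirus-treated minus control, of each member's summed locus (square) and the median of its 20 neighbouring loci (diamond). NFKBIA lies at 0.01 beside neighbours at 0.24, and LIF at -0.46 beside neighbours at -0.03.

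The other features at and beside the members were counted too. By limma 0 of the 8 tested among the 85 other features of the member loci were called, with 2 at an unadjusted p under 0.05, both at NFKBIA. Within 3 kb of the member rows but outside their loci lay 8 further features, of which 6 were tested and 0 called, with 1 at an unadjusted p under 0.05. Over all tested features 6.48% were called and 24.2% had an unadjusted p under 0.05, and nothing is read from these small counts. The feature counted in the flanks was JK099606.1, beside NFKBIA, with 17.6, 18.7 and 6.36 FPKM in lentivirus-treated libraries against 2.00, 2.03 and 8.03 FPKM in control libraries and a limma adjusted p of 0.170. Its groups overlapped.

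The columns summed to between 2094230 and 2206925 FPKM, and FPKM keeps no read counts, so the depth is unknown and values near or below 1 FPKM carry a counting error that cannot be given. Other genes of the pathway, markers of the cell line and of other cell types, and SHOC2 itself were not analysed here, because 0 of the 51520 IDs could be matched to a symbol through the RefSeq table.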

How the data were processed

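Poly-A RNA of 6 COS-1 libraries was sequenced, per the labels' protocols. The authors deposited 1 table of FPKM values, 1 column per library. The tools named in the submitters' processing notes are Cufflinks 2.1.1, Cuffdiff, TopHat2 2.0.10, CASAVA and Bowtie2 2.1.0.0; no role, genome build or scaling between libraries is given with them. Libraries were grouped by their titles.

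From these values log2(FPKM + 1) was tested with limma 3.58.1 under R 4.3.3 (linear model on the group alone, trended empirical Bayes variance), over the 28434 features averaging 1 FPKM or more; two-sided p-values were adjusted by Benjamini-Hochberg. Features with overlapping positions were joined, ignoring strand, into 20566 loci, summed and tested likewise. Exact permutation tests used SciPy 1.17.1. The test was checked on simulated data. All members are named whatever their values. The members, lists, locus sums and neighbour counts were chosen with earlier results of these data known. Alternatives covered the pseudocount, filter, scaling, replicate block and each left-out library.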

Additional observations from a re-analysis of the deposited data

How the results depend on the processing

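No member row or locus was called by limma under any alternative in which it was tested, which includes every fit with 1 library left out. For the rows this says little where few features were called at all. That was so with the replicate block and with 1 library left out, as the counts below give. The limma adjusted p of LIF ran from 0.077 to 0.188 for the row and from 0.0542 to 0.146 for the locus over 13 alternatives. The log2 changes of LIF ran from -0.94 to -0.26 and from -0.60 to -0.22, with the ends set by pseudocounts of 0.1 and 5. All were negative, which leaving out 1 library could not alter because the groups did not overlap. With a filter of 5 FPKM no member row was tested, and of the loci NFKBIA alone. Of 234 recomputed changes of single members, 7 had the other sign, none of them called. The NFKBIA locus stood at -0.029 log2 both without lentivirus replicate 2 and without control replicate 1, against 0.0095 with all libraries, and ran from -0.029 to 0.042 with 1 library left out. The CXCL8 row stood at 0.0082 without control replicate 1, against -0.14, and the ICAM1 row at -0.020 without lentivirus replicate 3, against 0.031. Summing overlapping features turned ICAM1 to -0.078 and CXCL1 to 0.25, against -0.047 for its row. The other was the NFKBIA row, near 0 throughout. The count of called features was 1842; it was 1220 with no filter, 0 with the replicate block (6084 at an unadjusted p under 0.05) and 48 to 108 with 1 library left out. The count of called loci was 3134; it was 1774 with the replicate block and 1443 to 2232 with 1 library left out. Same-numbered libraries had correlations of their deviations from the group means of 0.13, -0.03 and 0.003 across features, and not every library correlated best with its own number, so the numbers were not taken as pairs. The block leaves fewer residual degrees of freedom; with it the LIF row had a limma adjusted p of 0.167 and the LIF locus one of 0.0853. The sum of only those features that overlap the member row itself, added after the data were seen, gave -0.13 log2 at CXCL8 and 0.23 at CXCL1. FPKM holds no counts, so what depth limits could not be estimated.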
